A study of Homo sapiens with 6 samples.

Results

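The genes described here are 8 apoptotic caspases and proteins that activate or restrain them: CASP2, CASP6, CASP8, CASP9, CASP10, CFLAR, APAF1 and XIAP. They were chosen by symbol, with earlier results of these data known. All 8 were found among the 38637 genes of the deposited table and passed the filter on low values, as did 16178 genes in all. Gene expression had been measured by sequencing polyadenylated RNA from OVCAR8, a human ovarian cancer cell line labelled as wild type. Cells received the solvent DMSO (3 samples) or pladienolide B, an inhibitor of the splicing factor SF3B1, at 2 nM (3 samples), both for 72 h. The labels do not say whether the 3 samples of a group came from separate cultures, so p-values measure only the spread between these samples. The study used pladienolide B to ask what inhibition of SF3B1 does to ovarian cancer cells, including how they die.

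Caspases are proteases that cut after aspartate and carry out apoptosis. In the death receptor pathway, ligand-bound receptors gather CASP8 and CASP10 through the adaptor FADD, and CFLAR (the protein c-FLIP), a caspase relative with no protease activity, enters the same complex and restrains it. In the mitochondrial pathway, released cytochrome c lets APAF1 build the apoptosome, a wheel-shaped complex that activates CASP9. XIAP binds CASP9 and inhibits it, while CASP2 is activated on a platform of its own, the PIDDosome, and CASP6 cuts nuclear lamins downstream.

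The coding sequence around the catalytic cysteine shows how the caspases resemble each other and where CFLAR departs from them. It is given 5′ to 3′ on the strand of the gene from GENCODE's canonical transcripts, with GRCh38 coordinates and 21 bases on each side of the codon. The codon in capitals is that of the catalytic cysteine, or in CFLAR the codon at the same place. The stretches of CASP8, CASP10 and CFLAR lie within 1 exon each, at chr2:201285070-201285114 (exon 8), chr2:201209327-201209371 (exon 9) and chr2:201160695-201160739 (exon 9), all on the plus strand. Those of CASP2 (chr7:143300264-143303797, plus strand, codon in exon 8), CASP6 (chr4:109690983-109694542, minus strand, codon in exon 6) and CASP9 (chr1:15495439-15504641, minus strand, codon in exon 6) each cross 1 exon junction, so that their coordinates span an intron that is not printed.
CASP8: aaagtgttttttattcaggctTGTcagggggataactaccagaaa
CASP10: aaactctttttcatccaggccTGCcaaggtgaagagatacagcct
CASP9: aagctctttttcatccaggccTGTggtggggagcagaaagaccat
CASP2: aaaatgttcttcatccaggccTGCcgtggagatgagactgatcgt
CASP6: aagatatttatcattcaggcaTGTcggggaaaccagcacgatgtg
CFLAR: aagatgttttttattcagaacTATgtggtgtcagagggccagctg

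In the 5 caspases the codon encodes cysteine, at position 360 of CASP8, 401 of CASP10, 287 of CASP9, 320 of CASP2 and 163 of CASP6. In CFLAR it encodes tyrosine, at position 360. The best ungapped match to 21 residues around the site of each of the 5 caspases placed the same CFLAR codon there. Over their translated sequences, CASP8 and CASP10 had 42.6% identity in 453 aligned residues. CASP8 and CFLAR had 30.6% in 435, and CASP10 and CFLAR had 31.7% in 438. APAF1 and XIAP are not caspases and are not part of this comparison.

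The samples held 22621338 to 26130882 recovered reads on genes, and the log2 values of replicates correlated at 0.9923 to 0.9936. DMSO replicate 2 stood somewhat apart: the chi-square per gene between it and the other DMSO samples was 7.25 and 7.34, against 2.01 between those, and the fold changes without it are given below. SF3B1, the target of the drug, rose from 10090 ± 299.9 to 12510 ± 333.2 adjusted reads (SD, n = 3 each, log2 fold change 0.31, limma adjusted p = 7.52e-06). Of 8 markers of epithelial and ovarian carcinoma cells all were detected. KRT8 was at 40090 or more and PAX8 at 4011 or more in every sample, but CDH1 at no more than 41.6. Of these 8, 3 were called higher and 1 lower after treatment, where 22.4% of all genes tested were called higher and 25.2% lower. The summed level of 5 leukocyte markers was between 1103 and 1261 in the control samples and between 1500 and 1605 in the treated samples, of which CD68 made up nearly all, with PTPRC at no more than 2.00 and CD3E at 0. Of 4 fibroblast markers COL1A1 and PDGFRB were lower, the sum of the list was between 6927 and 7104 in control and between 5813 and 6516 in treated samples, and DCN reached no more than 2.07. The 3 endothelial markers summed to between 45.8 and 71.5 in control and between 59.7 and 90.2 in treated samples, with CDH5 at no more than 4.24. Their part in the results below was not tested.

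Expression of 6 of the 8 genes differed between the groups at an adjusted p below 0.05 by limma on log2(value + 1), 75% of them against 47.6% of all genes tested. CASP8, XIAP and CASP2 were higher with pladienolide B, 3 of 8, where 22.4% of all genes tested were called higher. CFLAR, APAF1 and CASP6 were lower, again 3 of 8, where 25.2% were called lower. CASP9 and CASP10 had lower means but did not pass the test. With limma, edgeR and DESeq2 no member changed 2-fold, a size that 3.93% of all genes tested reached with a call, and the median size of the log2 fold change was 0.39 over the 8 genes and 0.23 over all genes tested. For 7 of the 8 genes every sample of one group lay above every sample of the other, which was so for 55.3% of all genes tested. The values are adjusted reads, that is reads scaled to a common library size, with 1 value a gene, so the known splice forms of CASP2, CASP8, CASP9 and CFLAR were not separated. In bulk RNA, fewer cells that express a gene and less of its RNA in each cell cannot be told apart.

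**Figure D1:**
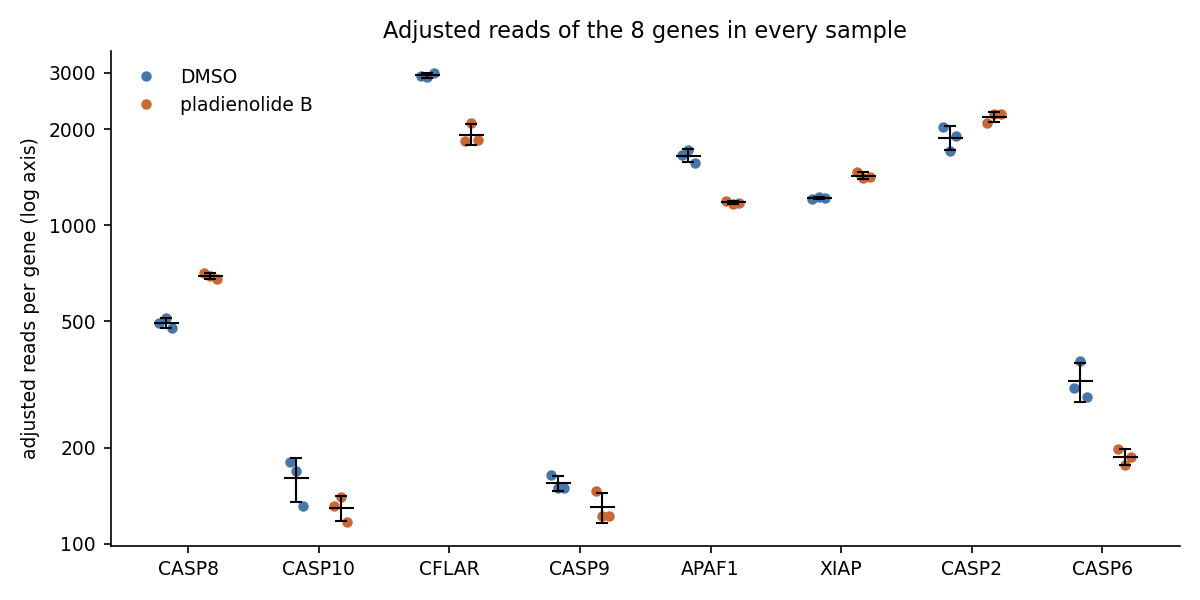
Adjusted reads (log axis) of the 8 genes in the 3 DMSO and 3 pladienolide B samples, each point 1 sample, with the mean and SD in black. The groups are apart for CASP8 (475.2 to 512 against 675.4 to 707.6), CFLAR (2905 to 2994 against 1830 to 2090) and APAF1, and overlap for CASP10.

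Among the genes of the death receptor complex, CASP8, its initiator protease, rose. It had 492.3, 512 and 475.2 adjusted reads in DMSO replicates 1 to 3 and 707.6, 692.8 and 675.4 in pladienolide B replicates 1 to 3. The lowest treated sample was well above the highest control sample. The mean went from 493.2 ± 18.4 to 691.9 ± 16.1 (SD, n = 3 each), a 1.40-fold rise with a log2 fold change of 0.49 (SE 0.07, 95% confidence interval 0.35 to 0.63, limma adjusted p = 1.46e-05).

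CFLAR, which restrains CASP8 in that complex, fell, with the lowest p of the 8 genes. Its adjusted reads were 2944, 2905 and 2994 in DMSO and 1830, 2090 and 1847 in pladienolide B. The control samples lay close together, and the highest treated sample, replicate 2, was far below the lowest of them. The mean went from 2947 ± 44.3 to 1923 ± 145.4, which is 1.54-fold lower (log2 fold change -0.62, SE 0.05, 95% confidence interval -0.73 to -0.51, limma adjusted p = 7.08e-08). CFLAR-AS1, a noncoding gene on the opposite strand within CFLAR, had 2 to 18 recovered reads a sample and was not tested.

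CASP10, the paralog of CASP8 in this complex, had few reads and did not pass the test. Its adjusted reads were 180.2, 169.3 and 131.8 in DMSO and 131.3, 140.6 and 117.3 in pladienolide B. Control and treated samples overlapped through DMSO replicate 3, which lay with the treated samples. The log2 fold change was -0.30 (SE 0.14, 95% confidence interval -0.59 to 0.0015, limma adjusted p = 0.0944), and leaving out 1 sample moved it both ways. Without DMSO replicate 3 it was -0.43 with an adjusted p of 0.024 by limma, and without DMSO replicate 1 it was -0.21 with an adjusted p of 0.317. CASP10 had 117 to 191 recovered reads a sample, for which counting alone gives an error of about 8.29%.

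A factor shared by all genes of a sample would cancel in the ratio of these genes within that sample, apart from the added 1. The adjustment of the deposited values is not such a single factor, so the ratios can still depend on it in part. The log2 ratio of CFLAR to CASP8 was 2.58, 2.50 and 2.65 in DMSO and 1.37, 1.59 and 1.45 in pladienolide B, with no overlap. This lack of overlap follows from the genes themselves, whose groups were each apart and in opposite directions. How often other pairs of genes have ratios without overlap was not examined. Its mean went from 2.58 ± 0.08 to 1.47 ± 0.11, so that CFLAR reads for each CASP8 read were 2.15-fold fewer with pladienolide B, 2.78 ± 0.219 in place of 5.98 ± 0.313 (SD, n = 3 each). The log2 ratio of CASP10 to CASP8 was -1.44, -1.59 and -1.84 in DMSO and -2.42, -2.29 and -2.52 in pladienolide B, again with no overlap. Its mean moved by -0.78, which is 1.72-fold lower. Both ratios, and the other two tested, gave p = 0.1 in the 2-sided exact permutation test over 6 samples, the smallest that 3 against 3 allow, and 0.1 after Benjamini-Hochberg adjustment over the 4 ratios, so this test cannot pass 0.05.

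**Figure D2:**
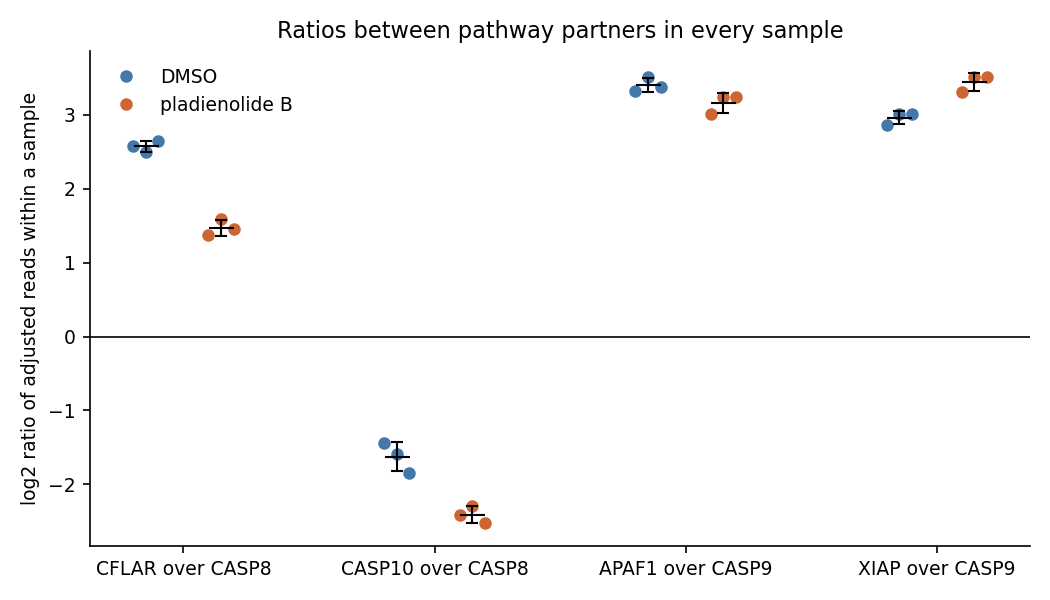
Log2 ratio of adjusted reads of 2 genes within each sample, each point 1 sample, with the mean and SD in black. CFLAR over CASP8 lies between 2.50 and 2.65 in control and between 1.37 and 1.59 in treated samples. No ratio overlaps between the groups, which for CFLAR over CASP8 and XIAP over CASP9 follows from the separate genes.

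CFLAR, CASP10 and CASP8 stand next to each other on the plus strand of chromosome 2, within 171548 bases (chr2:201116164-201287711 of GRCh38). CFLAR ends 6197 bases before CASP10, and CASP10 ends 4036 bases before CASP8. The outer genes of the row thus moved in opposite directions, with log2 fold changes of -0.62 and 0.49. Of 21 other genes of the table within 500000 bases, 14 were tested, of which 3 were called higher and 4 lower by limma, with a median log2 fold change of 0.04. These counts lie near the shares over all genes tested, 22.4% called higher and 25.2% lower. The nearest tested gene on each side of the row was not called. NDUFB3, before CFLAR, was at 0.04 (limma adjusted p = 0.788). FLACC1, after CASP8, was at -0.08 (SE 0.48, adjusted p = 0.911), but it had few reads and its value is uncertain. Farther off in the window were changes of a size like those of CFLAR and CASP8. The largest called rise was AOX1 at 0.52 (adjusted p = 8.21e-07) and the largest called fall TMEM237 at -0.59 (adjusted p = 2.19e-05).

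**Figure D3:**
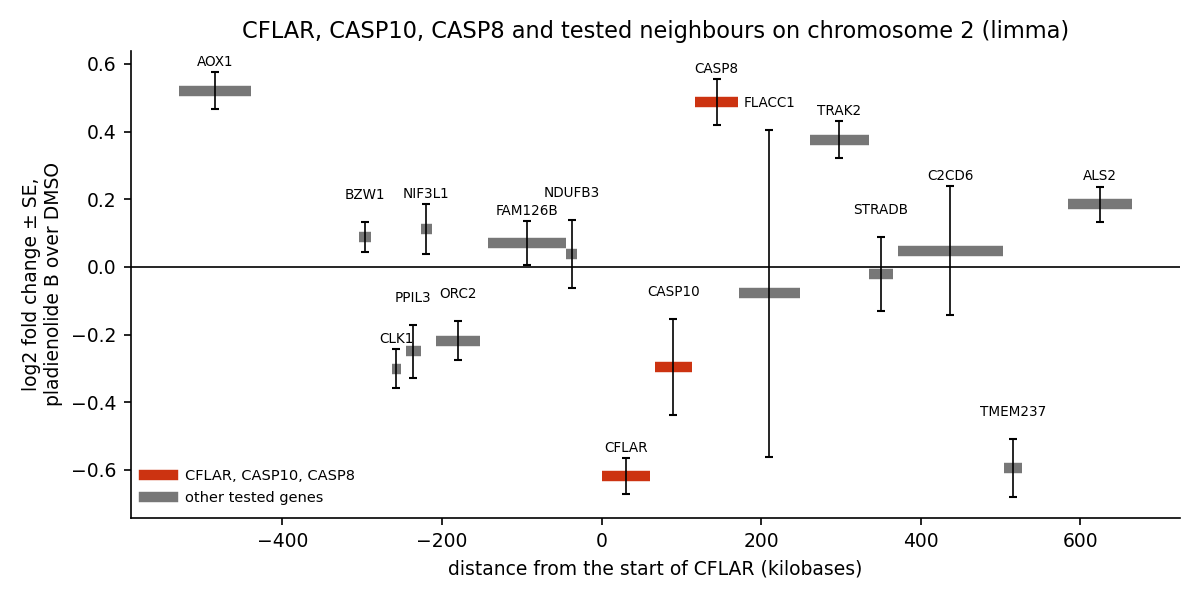
Change in expression with pladienolide B (log2 fold change by limma, with SE) of the tested genes around CFLAR, CASP10 and CASP8 on chromosome 2, against the distance from the start of CFLAR in kilobases, each bar spanning 1 gene. CFLAR lies at -0.62 and CASP8 at 0.49, and the 14 other genes lie on both sides of 0.

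In the mitochondrial pathway APAF1, the scaffold of the apoptosome, fell. It had 1663, 1724 and 1569 adjusted reads in DMSO and 1191, 1164 and 1176 in pladienolide B. All treated samples were below all control samples, and they differed from each other by a coefficient of variation of 1.17%. The mean went from 1652 ± 78.1 to 1177 ± 13.8 (SD, n = 3 each), 1.40-fold lower (log2 fold change -0.49, SE 0.05, 95% confidence interval -0.60 to -0.38, limma adjusted p = 9.56e-07). The gene lies on the plus strand at chr12:98645141-98735433, and its last 5530 bases overlap ANKS1B on the minus strand, of which 750 bases are exon in both, 10.4% of the APAF1 transcript. ANKS1B fell as well, from 631.8 ± 24.2 to 468 ± 11.6 (log2 fold change -0.43, limma adjusted p = 6.92e-05). Whether reads were counted by strand is not given in the sources used here, so reads of the shared bases cannot be assigned, and their part in the fall of either gene was not tested.

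CASP9, the initiator protease that APAF1 activates, did not pass the test. Its adjusted reads were 164.9, 150.2 and 150.2 in DMSO and 146.7, 121.9 and 122.3 in pladienolide B. All treated samples were lower, but the highest treated sample was close to the lowest control sample. The log2 fold change was -0.25 (SE 0.13, 95% confidence interval -0.52 to 0.02, limma adjusted p = 0.114), and with 114 to 175 recovered reads a sample, counting alone gives an error of about 8.35%.

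XIAP, the inhibitor of CASP9, rose by a small amount. It had 1207, 1229 and 1215 adjusted reads in DMSO and 1468, 1402 and 1410 in pladienolide B. The control samples had a coefficient of variation of 0.914%, and all treated samples were above them. The mean went from 1217 ± 11.1 to 1427 ± 36.3 (SD, n = 3 each), 1.17-fold higher (log2 fold change 0.23, SE 0.05, 95% confidence interval 0.12 to 0.34, limma adjusted p = 0.00123). That size is the median over all genes tested.

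Against CASP9 reads in the same sample, APAF1 moved down and XIAP up. The log2 ratio of APAF1 to CASP9 was 3.33, 3.51 and 3.38 in DMSO and 3.01, 3.24 and 3.25 in pladienolide B, a difference of -0.23. The log2 ratio of XIAP to CASP9 was 2.86, 3.02 and 3.01 in DMSO and 3.31, 3.51 and 3.52 in pladienolide B, a difference of 0.48. Neither ratio overlapped between the groups, though for APAF1 the gap was narrow. For XIAP this follows from the genes themselves, since all treated samples were higher for XIAP and lower for CASP9.

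CASP2, the initiator caspase of the PIDDosome, was slightly higher with pladienolide B. It had 2026, 1705 and 1909 adjusted reads in DMSO and 2092, 2230 and 2229 in pladienolide B. All treated samples were higher, with DMSO replicate 1 close below treated replicate 1 and DMSO replicate 2 the lowest of all. The log2 fold change was 0.22 (SE 0.06, 95% confidence interval 0.09 to 0.34, limma adjusted p = 0.00543). The call was lost when limma was fitted without its trend of variance on expression, with an adjusted p of 0.0703.

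CASP6, an executioner caspase that cuts lamin A, fell the most of the 8 genes. It had 307.6, 375.9 and 288.7 adjusted reads in DMSO and 198.9, 176.4 and 187.4 in pladienolide B. DMSO replicate 2 was the highest sample, and every treated sample was below every control sample. The mean went from 324.1 ± 45.9 to 187.6 ± 11.3 (SD, n = 3 each), 1.72-fold lower (log2 fold change -0.78, SE 0.11, 95% confidence interval -1.01 to -0.54, limma adjusted p = 2.21e-05), a size above that of 92.3% of all genes tested. CASP6, on the minus strand at chr4:109688628-109703445, shares 92 bases at its 3′ end with MCUB on the plus strand, which had 433 ± 54.4 and 395.4 ± 17.8 adjusted reads (log2 fold change -0.12, limma adjusted p = 0.287).

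**Figure D4:**
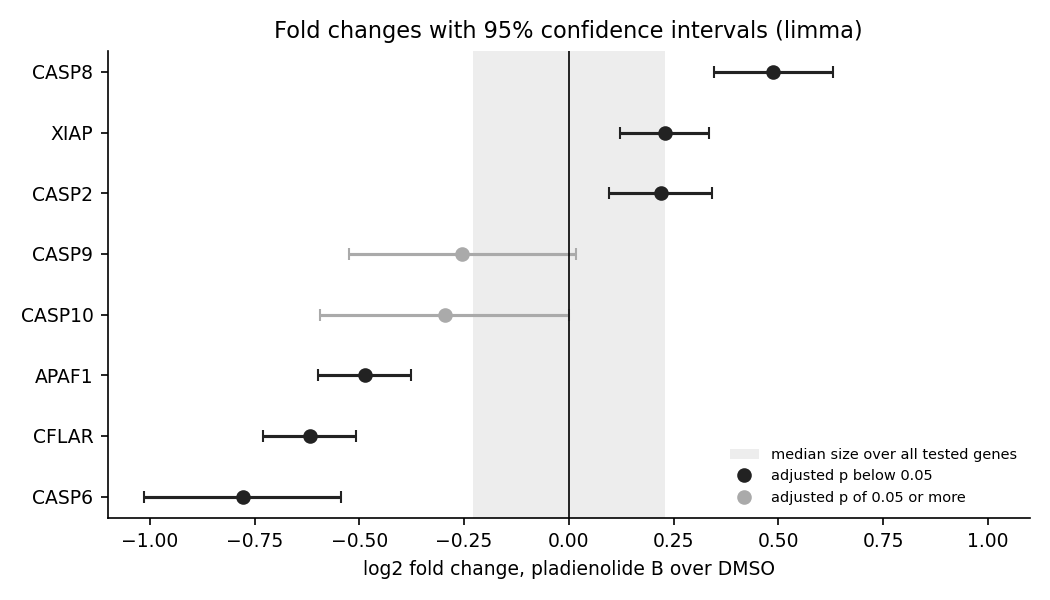
Change in expression of the 8 genes with pladienolide B, as the log2 fold change against DMSO with 95% confidence intervals from limma, dark for an adjusted p below 0.05. The grey band spans the median size over all genes tested, 0.23 on either side of 0. CASP6, CFLAR and APAF1 lie below it and CASP8 above it, while XIAP and CASP2 lie at its edge.

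Without DMSO replicate 2, the sample that stood apart, the calls of the 8 genes were the same. The log2 fold changes were then 0.52 for CASP8, -0.63 for CFLAR, -0.46 for APAF1, 0.24 for XIAP and -0.67 for CASP6. Of the other three, CASP2 was at 0.15, CASP9 at -0.28 and CASP10 at -0.25. The value of CASP2 moved by the most relative to its size, with a limma adjusted p of 0.0119.

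Levels were compared between genes per kilobase of the canonical transcript. In DMSO the order was CASP2 (459.7 ± 39.8 adjusted reads per kilobase), APAF1 (229.4 ± 10.9), CFLAR (201.7 ± 3.03), CASP6 (198.3 ± 28.1), CASP8 (185.5 ± 6.93), XIAP (142.2 ± 1.30), CASP9 (55.2 ± 3.03) and CASP10 (28.3 ± 4.48; SD, n = 3 each). CASP2 was 16.2-fold above CASP10. The samples of CASP6 overlapped with those of both its neighbours in this order, CFLAR and CASP8, and no other neighbours overlapped. With pladienolide B the level of CASP8 was 260.2 ± 6.04 per kilobase, next in order after CASP2 (534 ± 19.4), where in DMSO it had been behind APAF1, CFLAR and CASP6 as well. The level of CFLAR was 131.6 ± 9.95, below CASP8, XIAP (166.7 ± 4.24) and APAF1 (163.4 ± 1.92), of which the last 2 overlapped each other. CASP9 (46.4 ± 5.06) and CASP10 (22.9 ± 2.08) stayed the lowest in both groups. The order in the middle depended on the length used. Levels were also taken per kilobase of all annotated exons merged, a choice added after the values were seen. CASP8 was then at 68.2 in DMSO, behind CASP2, APAF1, CASP6, CFLAR (131.1) and XIAP. With pladienolide B it was at 95.6, behind CASP2, APAF1 and XIAP and above CFLAR (85.5), and its samples overlapped those of CASP6 (96.5).

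The other genes of the caspase pathway were a list of 45, of which 39 were tested. By limma 18 of these had an adjusted p below 0.05, 46.2% against 47.6% of all genes tested, 10 of them higher and 8 lower, and their median log2 fold change was 0.06. With limma, DESeq2 and edgeR none was called with a 2-fold change. The call held under all alternatives for 12 of the 18 and was lost under at least 1 for CASP4, NAIP, AVEN, TNFRSF1A, CASP8AP2 and LMNB1. The genes named next are the 2 largest rises and the 2 largest falls among the called genes, and beyond these, genes picked after their values were seen, to show each role.

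In the death receptor complex 8 of the 10 tested genes were called by limma, 6 higher and 2 lower, where 22.4% of all genes tested were called higher and 25.2% lower. The counts of the other roles, each of 10 genes or fewer, are to be read against the same shares. TNFRSF10A, a receptor for the ligand TRAIL, had the largest called rise of the list, from 326.4 ± 4.70 to 455.4 ± 26.2 adjusted reads (log2 fold change 0.48, limma adjusted p = 0.00011). TNFRSF10B, the other TRAIL death receptor, rose from 2482 ± 190.9 to 3265 ± 120.3 (log2 fold change 0.40, limma adjusted p = 1.43e-05). PEA15, which binds FADD and CASP8, was higher by 0.31 on the log2 scale. RIPK1, a kinase of receptor complexes, was higher by 0.20, CASP8AP2 by 0.13 and TNFRSF1A, a TNF receptor, by 0.13. TRADD, the adaptor of TNF receptor complexes, fell from 494.7 ± 40.1 to 337.4 ± 31.1 (log2 fold change -0.55, limma adjusted p = 8.31e-05), the second largest called fall of the list. FAS, the receptor for FAS ligand, was lower (-0.26 on the log2 scale, adjusted p = 0.00451), and FADD, the adaptor that holds CASP8, had a value of 0.08 (adjusted p = 0.291).

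Around the apoptosome, 1 of 4 tested genes was called: AVEN, an inhibitor of APAF1, at 0.27 (limma adjusted p = 0.0126). CYCS, which encodes cytochrome c, was at -0.09 (adjusted p = 0.226). Of 5 tested genes of the inhibitor of apoptosis family other than XIAP, 2 were called by limma and by DESeq2, both lower, and 3 by edgeR's quasi-likelihood test, where BIRC3, which encodes the ubiquitin ligase cIAP2, was called as well, at 0.25 (adjusted p = 0.0484, against 0.0765 by limma). By limma the log2 fold change of BIRC3 was 0.11 without pladienolide B replicate 2 (adjusted p = 0.424) and 0.39 without replicate 3 (adjusted p = 0.000531). NAIP had the largest called fall of the list, from 138.1 ± 10.9 to 89.1 ± 25.4 adjusted reads (log2 fold change -0.67, limma adjusted p = 0.00726), but it lies among near-identical copies, so its reads are uncertain. The value rested in part on pladienolide B replicate 1: without it the log2 fold change of NAIP was -0.41 (limma adjusted p = 0.0418), smaller in size than that of TRADD in the same fit (-0.53). BIRC5, which encodes survivin and also acts in mitosis, was lower too, at -0.38 (adjusted p = 2.34e-05). Of 3 tested antagonists of these inhibitors, DIABLO, which encodes the XIAP-binding protein SMAC, was called, at 0.23 (adjusted p = 0.00238).

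The partners of CASP2 in the PIDDosome, PIDD1 and CRADD, were at 0.08 and 0.28 with limma adjusted p-values of 0.457 and 0.166, and 0 of the 2 passed at an unadjusted p below 0.05 or with DESeq2 or edgeR. Of 3 genes of caspase recruitment and inhibition 0 were called by limma, DESeq2 or edgeR, and 1 had an unadjusted p below 0.05. Of 2 tested inflammatory caspases 1 was called, CASP4, at 0.13 (limma adjusted p = 0.0214). Among 10 tested caspase substrates 4 were lower and 1 higher. The lower ones were GSDME, a gasdermin, at -0.38, LMNB1, a nuclear lamin, at -0.28, PARP1, a DNA repair enzyme, at -0.22, and DFFA, the inhibitor of the apoptotic nuclease, at -0.21. ACIN1, a chromatin condensation and splicing protein, was higher by 0.20.

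**Figure D5:**
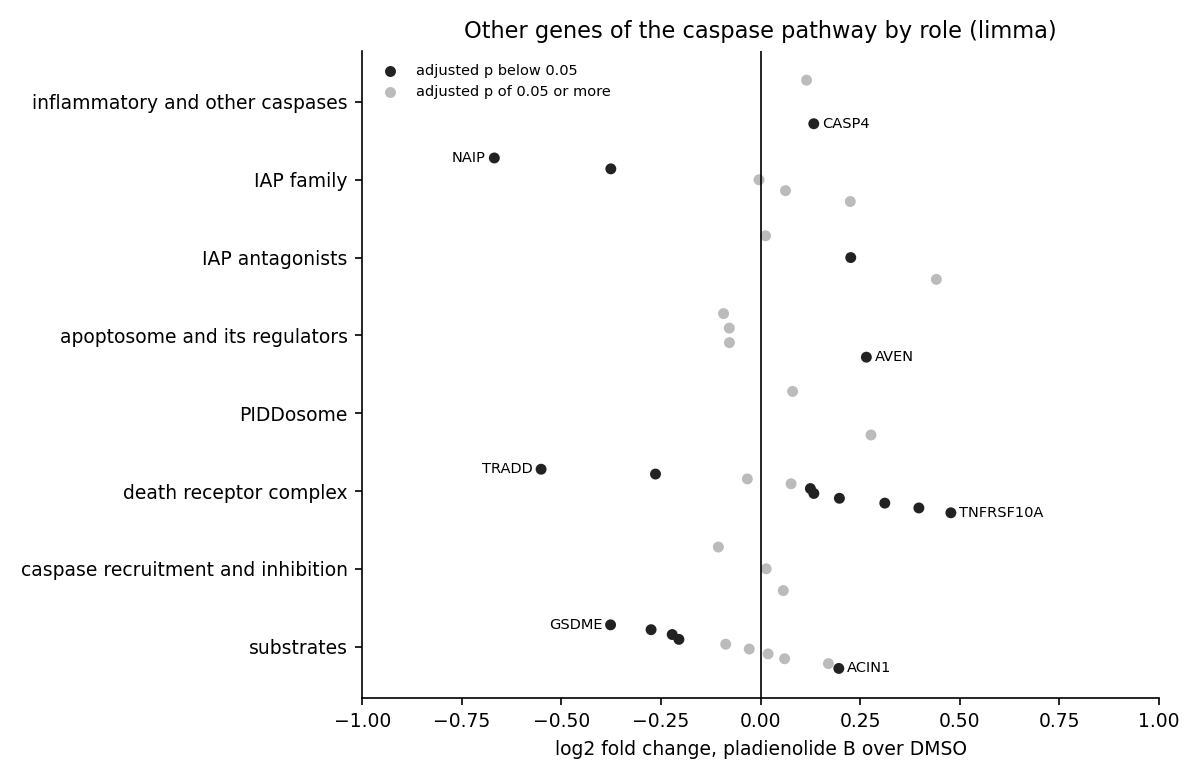
Change in expression with pladienolide B (log2 fold change by limma) of 39 tested genes of the caspase pathway, grouped by role, each point 1 gene and dark for an adjusted p below 0.05. In the death receptor complex 6 genes are called higher and 2 lower, and among substrates 1 higher and 4 lower; no gene reaches a log2 fold change of 1 in size.

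The genes whose log2 values were most like those of each member over the 6 samples, by Pearson's r, were GYG1 for CASP8 (r = 0.9992), ITGAV for CFLAR (0.9994), MEA1 for CASP10 (0.9899), SNX16 for CASP9 (0.9993), KIF27 for APAF1 (0.9991), ZDHHC3 for XIAP (0.9987), LRRC56 for CASP2 (0.9944) and TASOR for CASP6 (0.9996). With 6 samples in 2 groups such values are common: 1468 genes reached an r of 0.95 with APAF1, 1292 with CASP8 and 1248 with CFLAR, but 22 with CASP10 and 40 with CASP9. The like genes did not all move by the same amount, since r ignores the size: ITGAV, an integrin subunit, had a log2 fold change of -0.82 (limma adjusted p = 3.46e-09), and TASOR, a silencing factor, of -0.20 (adjusted p = 0.000563).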

How the data were processed

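RNA from 6 OVCAR8 samples was sequenced. Per the paper's methods the authors aligned reads to hg38 with hisat2 and used DESeq2; the submitters' processing notes name HISAT2, HTSeq 0.12.4, DESeq2 and hg19, and gene positions in the table are those of GRCh38. The authors deposited 1 signal value per gene and sample, scaled for library size and found to be edgeR's quantile-adjusted reads with a common dispersion of 0.0027. Inverting the adjustment gave whole reads (tolerance 0.02) for 100% of 96432 values no lower than 10. The deposited log2 fold changes, p-values and q-values are the authors' own comparison and were not used.

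Adjusted values were tested as log2(value + 1) with limma 3.58.1, with a variance trend, 2-sided, after edgeR 4.0.16's filterByExpr (about 10 in 3 samples), with Benjamini-Hochberg adjustment over 16178 genes. The pseudocount makes fold changes of low genes smaller. Alternatives were other filters, a smaller pseudocount (0.1), a replicate block, edgeR's quasi-likelihood test and DESeq2 1.42.0 on recovered reads (7738 and 6985 genes called, against 7695), limma without trend and leaving out each sample. Fits were also run on simulated data in which all changes were 2-fold or larger, which does not check changes of the size of the members. Ratios were tested with an exact permutation test. Gene structures and transcript sequences are from GENCODE on GRCh38, and the translated sequences were aligned with Biopython 1.88.

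Genes named were the 8 members, the gene most correlated with each member, genes overlapping a member, and SF3B1. From the pathway list they were called genes changed 2-fold, or else the 2 largest rises and falls among called genes. Others were picked after their values were seen. The members and lists were chosen with earlier results of these data known. The samples held 22621338 to 26130882 reads. The mean recovered reads of the gene itself give a counting error of 2.02% for CFLAR and 8.35% for CASP9. Some genes of the pathway list are not reported here.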

Additional observations from a re-analysis of the deposited data

How the results depend on the processing

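The directions of the 8 genes were the same in all 120 alternative values, and the call was the same in 118. Other filters, the replicate block and limma without the trend leave a gene's fold change as it is. In those fits only the call could differ, so their directions are no separate check. CASP2 missed the threshold in limma without the variance trend (0.22, adjusted p = 0.0703), and CASP10 passed it without DMSO replicate 3 (-0.43, adjusted p = 0.024). The cause was not tested. Leaving out 1 sample gave 6 to 7 called members, 14 to 19 called pathway genes and 6568 to 7836 called genes in all. The log2 ratio of CFLAR to CASP8 then differed between the groups by -1.17 to -1.06, that of CASP10 to CASP8 by -0.89 to -0.69, that of APAF1 to CASP9 by -0.28 to -0.15 and that of XIAP to CASP9 by 0.43 to 0.55. The deviations of samples with the same replicate number correlated at -0.0183, -0.0175 and 0.00261. Those of samples with different numbers correlated at -0.035 to 0.0485. With 3 samples a group these values cannot decide whether the numbers pair the samples. With the replicate block 7349 genes, 6 members and 18 pathway genes were called by limma. The ratio differences taken within replicate numbers were -1.11, -0.78, -0.23 and 0.48. By arithmetic these equal the differences of the group means, so they are no check of pairing. Limma without the trend gave the lowest counts, 6381 genes, 5 members and 13 pathway genes. CASP9 and CASP10 had the fewest reads of the 8 genes, and the part of depth in their missing calls was not tested. With 3 samples a group the ratio test cannot pass 0.05.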
